A study of Mus musculus with 9 samples.

Results

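sRNA-seq libraries of mouse Meis1/Hoxa9 cells were examined for 3 mature miRNAs encoded within the Hox gene clusters, mmu-miR-10a-5p, mmu-miR-10b-5p and mmu-miR-196b-5p. They were listed by name and not by a threshold on their values, with earlier results of these data known. Of the 817 mature miRNAs in the table of counts, 2 were on this list, miR-10a-5p and miR-10b-5p. miR-196b-5p was not analysed here. The cells were c-Kit-enriched fetal liver cells of mid-gestation C57BL/6 embryos, transduced with retroviruses encoding Meis1 and Hoxa9. The study's methods describe serial replating in methylcellulose with SCF, IL-3, IL-6 and GM-CSF, and also liquid culture with SCF, IL-6 and IL-3. They do not say which culture gave the cells of these libraries. All 9 libraries carried both oncogenes and were labelled preleukemic. The 4 Tut4/7 cKO libraries came from cells in which the floxed Tut4 and Tut7 alleles were deleted by Vav-iCre, a Cre recombinase driven by a promoter active throughout the blood system. The 5 Tut4/7 CTL libraries, labelled WT, came from littermates with the same floxed alleles but without iCre. According to the study's methods, replicates of such cells were derived from separate animals or embryos. The labels do not tie single libraries to an embryo or a transduction, and the P values measure the spread between these libraries.

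Hox clusters encode homeodomain transcription factors that pattern the body axis and that are active in blood progenitors, and several miRNA genes lie between the Hox genes and can be transcribed along with them. Hoxa9 and its cofactor Meis1 sustain self-renewal of myeloid progenitors and are often overexpressed in acute myeloid leukemia. A mature miRNA guides the silencing complex to mRNAs that pair with its seed, and TUT4 and TUT7 add uridines to the 3′ ends of RNAs, miRNAs among them. The libraries were used to compare miRNA abundance and 3′ uridylation between cells with and without both enzymes.

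Both mature sequences are shown because they differ by a single base and share their seed (RefSeq, bases 2 to 8, in capitals).
mmu-miR-10a-5p: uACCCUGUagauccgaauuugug
mmu-miR-10b-5p: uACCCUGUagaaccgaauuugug
Each was 23 nt long, and they differed by U12A, with the base of miR-10a-5p first and positions counted from the 5′ end. All 31463 reads assigned to miR-10a-5p and all 42 assigned to miR-10b-5p covered base 12, and mapping had allowed no mismatch. Among the 707 miRNAs of the table that matched a RefSeq sequence, 2 had the seed ACCCUGU, miR-10a-5p and miR-10b-5p.

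miR-10a-5p lies on the plus strand at chr11:96208012-96208034 (GRCm39), in the single exon of Mir10a. This position falls between Hoxb5 and Hoxb4 and overlaps no other annotated gene. The start of Hoxb4 is 1059 bases downstream, and the end of Hoxb5 is 11065 bases upstream. miR-10b-5p lies on the plus strand at chr2:74556418-74556440, in the exon of Mir10b. There it falls within introns of 1 transcript of Hoxd3 and 2 transcripts of Hoxd4, outside their exons and UTRs. In the genome, miR-10a-5p is followed by T, A and A, and miR-10b-5p by T, G and G. A single T after either mature end can thus be genomic or added after transcription, and these reads cannot be told apart. A second T matches neither genomic sequence.

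The libraries held 209702 to 316620 miRNA reads in Tut4/7 CTL and 175462 to 479342 in Tut4/7 cKO cells. A read is called T-ended here when it passed the mature 3′ end in 1 to 3 Ts, the authors' mark of uridylation. Taking the 138 miRNAs that no library covered with fewer than 10 reads, the median T-ended share was 3.72%, 0.644%, 3.50%, 4.45% and 4.58% in Tut4/7 CTL replicates 1 to 5. It was 0.117%, 0.0738%, 0.209% and 0.128% in Tut4/7 cKO replicates 1 to 4. Tut4/7 CTL replicate 2 thus stood apart from the other control libraries, and the results that rest on it are given with and without it. It was singled out by its T-ended share, which is also the measure compared below. Differences in T-ended share without it are therefore not independent support.

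miR-10a-5p was the abundant member, and its level varied more between libraries than between genotypes. It had 205, 11325, 1687, 5470 and 643 reads in Tut4/7 CTL replicates 1 to 5. In Tut4/7 cKO replicates 1 to 4 it had 167, 207, 554 and 11205 reads. As CPM, read counts scaled to library size with TMM factors, the Tut4/7 CTL libraries had 915.6, 42657, 4961, 19085 and 2416 CPM. The Tut4/7 cKO libraries had 1140, 562, 1265 and 28179 CPM. The 2 libraries with the most miR-10a-5p, Tut4/7 CTL replicate 2 and Tut4/7 cKO replicate 4, were of different genotypes. The other 3 Tut4/7 cKO libraries lay between 562 and 1265 CPM, at the level of Tut4/7 CTL replicate 1, and the groups overlapped.

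**Figure D1:**
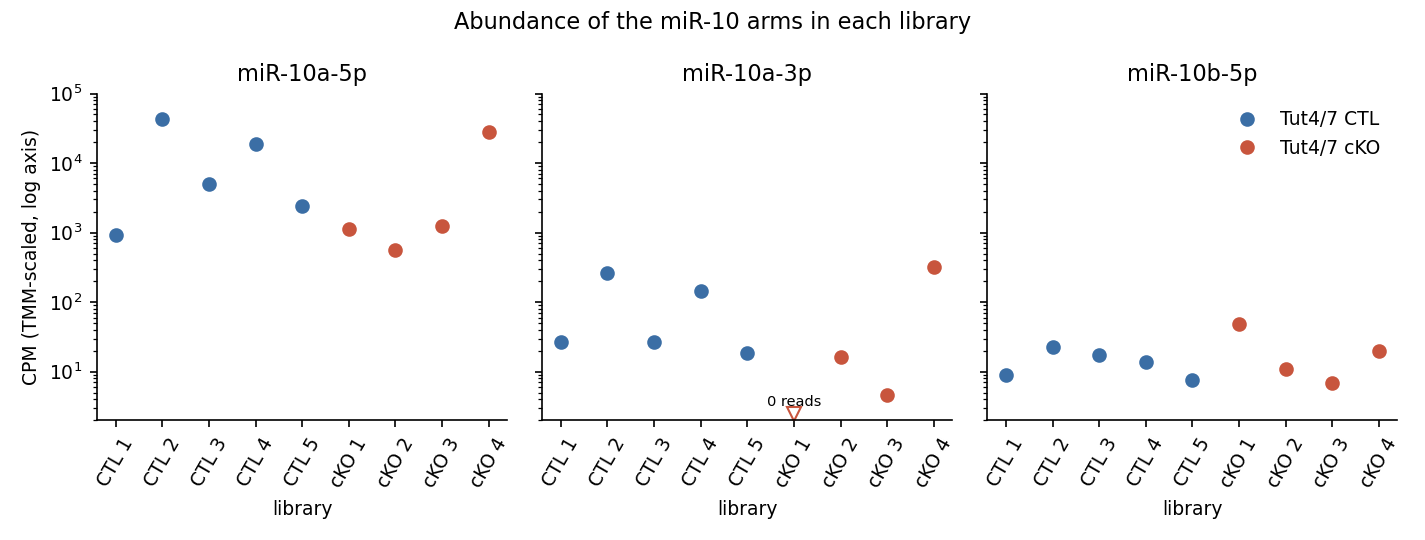
CPM (log axis) of miR-10a-5p, miR-10a-3p and miR-10b-5p in each of the 5 Tut4/7 CTL and 4 Tut4/7 cKO libraries, 1 point per library, with an open triangle for a library with 0 reads. miR-10a-5p and miR-10a-3p were highest in Tut4/7 CTL replicates 2 and 4 and Tut4/7 cKO replicate 4, whereas miR-10b-5p stayed at or below 47.8 CPM.

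The highest level of miR-10a-5p was 46.6 times the lowest in Tut4/7 CTL libraries and 50.1 times the lowest in Tut4/7 cKO libraries. It was the 7th most abundant of the 817 miRNAs in Tut4/7 CTL replicate 2 and the 8th in Tut4/7 cKO replicate 4. In Tut4/7 CTL replicates 1, 3, 4 and 5 its rank was 65, 30, 12 and 51. In Tut4/7 cKO replicates 1 to 3 its rank was 64, 81 and 57. It took between 0.0532% and 4.68% of all miRNA reads. The SD of its log2 CPM over the 9 libraries was 2.34, the highest among the 205 miRNAs tested for abundance (10 or more reads in 4 or more libraries), against a median of 0.67. Within genotypes the SD was 2.35, second among the same miRNAs, against a median of 0.63. Its lowest count in any library was 167 reads.

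**Figure D2:**
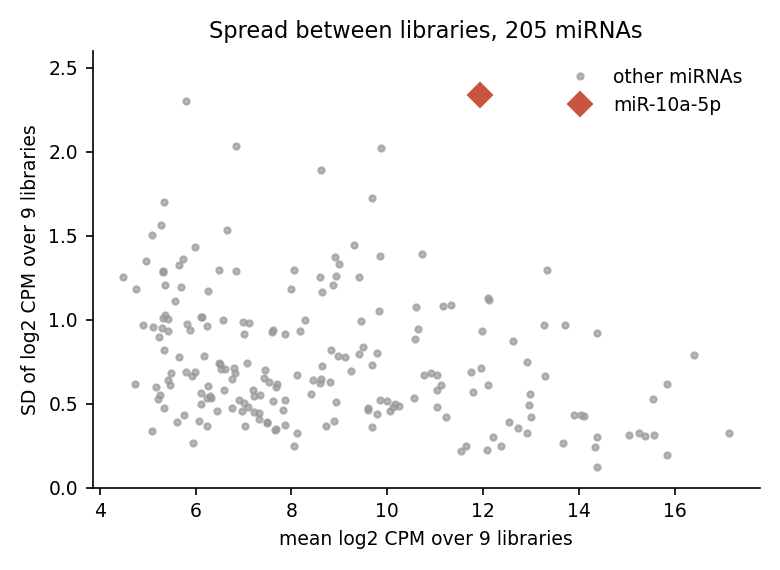
SD of log2 CPM over the 9 libraries against mean log2 CPM for the 205 miRNAs tested for abundance, 1 point per miRNA, with miR-10a-5p as a diamond. miR-10a-5p, with an SD of 2.34, lies above every other miRNA, the median being 0.67.

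Mean abundance of miR-10a-5p was 14007 ± 17565 CPM in Tut4/7 CTL (SD, n = 5) and 7787 ± 13599 CPM in Tut4/7 cKO cells (SD, n = 4). The log2 fold change, cKO against CTL, was −0.85 with an SE of 1.31 (edgeR quasi-likelihood test, adjusted p = 0.800). The difference was smaller than the spread between libraries, and its SE was the largest of the 205 miRNAs, whose median SE was 0.43. Across these miRNAs 1 passed an adjusted p of 0.05, or 0.488%. The estimate depended on single libraries. Without Tut4/7 CTL replicate 2 it was 0.09 (edgeR, adjusted p = 0.979), and without Tut4/7 cKO replicate 4 it was −3.91 (edgeR, adjusted p = 0.0689). The genotype difference in miR-10a-5p was therefore not resolved in these libraries. In such bulk libraries, fewer cells with the miRNA and less of it per cell cannot be told apart.

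The opposite arm of the same hairpin, miR-10a-3p, gave a second reading of Mir10a. The RefSeq hairpin is printed with both mature arms in capitals, miR-10a-5p first.
Mir10a: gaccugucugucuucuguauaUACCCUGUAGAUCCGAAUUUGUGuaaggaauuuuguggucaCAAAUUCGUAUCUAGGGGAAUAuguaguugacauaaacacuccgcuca
miR-10a-3p lies at chr11:96208053-96208074 on the plus strand (GRCm39). It had 6, 69, 9, 41 and 5 reads in Tut4/7 CTL replicates 1 to 5 and 0, 6, 2 and 128 reads in Tut4/7 cKO replicates 1 to 4. The 3 libraries with the most miR-10a-3p were also the 3 with the most miR-10a-5p. Reads of miR-10a-3p made up 0% to 2.84% of the reads of both arms. It passed the filter of at least 10 reads in 3 libraries only and was therefore not tested for abundance. T-ended reads of miR-10a-3p numbered 1 of 130 in Tut4/7 CTL libraries, and 1 of 136 for Tut4/7 cKO.

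miR-10b-5p was close to the limit of detection. It had 2, 6, 6, 4 and 2 reads in Tut4/7 CTL replicates 1 to 5 and 7, 4, 3 and 8 reads in Tut4/7 cKO replicates 1 to 4. Mean abundance was 14.1 ± 6.22 CPM in Tut4/7 CTL (SD, n = 5) and 21.4 ± 18.5 CPM in Tut4/7 cKO cells (SD, n = 4), and the groups overlapped. The count fell below the filter, so no abundance test was made. In every library miR-10a-5p had more reads than miR-10b-5p, with 0.0530 to 4.19 reads of miR-10b-5p per 100 reads of miR-10a-5p. In the 2 libraries where miR-10a-5p was highest, miR-10b-5p had 6 and 8 reads.

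Reads of miR-10a-5p took 25 forms, defined by their first base, their last base and the number of added Ts. The 5 most common forms are printed as DNA because together they made up 94.7% of its reads on average (91.7% to 97.0% in single libraries).
Bases 1 to 22: taccctgtagatccgaatttgt
Bases 2 to 23: accctgtagatccgaatttgtg
Bases 1 to 23: taccctgtagatccgaatttgtg
Bases 2 to 22: accctgtagatccgaatttgt
Bases 1 to 21: taccctgtagatccgaatttg
In this order they accounted for 35.4% ± 5.38, 24.5% ± 3.97, 21.5% ± 2.51, 10.5% ± 1.86 and 2.79% ± 0.894 of the reads (SD, n = 9). The annotated 23-nt sequence was thus the third most common form.

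A large share of miR-10a-5p reads began 1 base inside the annotated 5′ end. Reads from base 2 made up 41.0%, 39.4%, 36.2%, 39.3% and 35.3% in Tut4/7 CTL replicates 1 to 5 and 32.9%, 39.6%, 36.1% and 41.4% in Tut4/7 cKO replicates 1 to 4. The share of reads from base 2 thus stayed between 32.9% and 41.4% in libraries whose read numbers of this miRNA differed 67.8-fold. Reads from base 1 made up 61.6% ± 2.23 in Tut4/7 CTL (SD, n = 5) and 62.1% ± 4.0 in Tut4/7 cKO cells (SD, n = 4). They differed by 0.483 percentage points, less than the spread between libraries (exact permutation test, two-sided, p = 0.810, adjusted p = 0.984 over 6 comparisons of read forms). Averaged over libraries with at least 10 reads, 61.8% of miR-10a-5p reads began at base 1, a rank of 195 from the highest among 205 miRNAs, whose median was 99.7%. Of the 42 reads of miR-10b-5p, 17 began at base 2 (40.5%, exact 95% interval 25.6% to 56.7%). For miR-10a-3p this was 22 of 266 reads (8.27%, 5.26% to 12.3%). A read from base 2 has the bases CCCUGUA at positions 2 to 8, a seed found in 0 of the 1679 mature miRNAs of the RefSeq table.

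The 5′ start and the 3′ end of miR-10a-5p reads went together. Of the reads from base 1, 57.1% ± 6.23 ended at base 22 and 34.9% ± 4.95 at the mature end, base 23 (SD, n = 9). Of the reads from base 2, 28.0% ± 6.14 ended at base 22 and 64.2% ± 6.05 at base 23 (SD, n = 9). The commonest form with either start was thus 22 nt long. The ranges over the 9 libraries did not overlap at base 22, with 50.4% to 66.1% of reads from base 1 against 17.9% to 36.4% of reads from base 2. This pattern was noticed in the data and is given without a test.

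**Figure D3:**
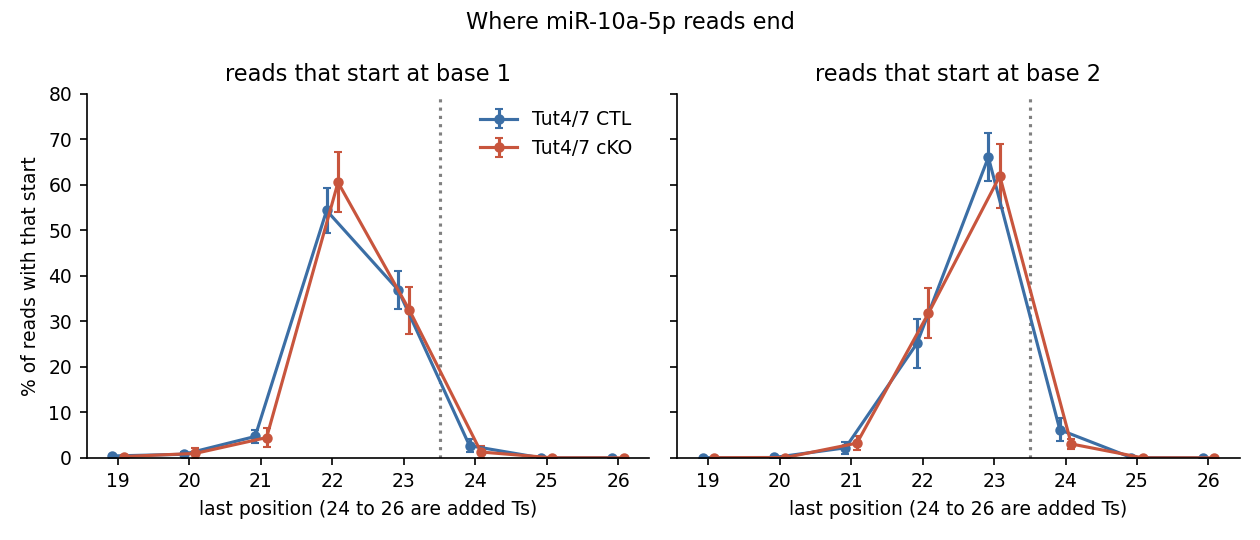
Last position of miR-10a-5p reads that start at base 1 (left) or base 2 (right), as percent of reads with that start, with points for means and bars for SD over 5 Tut4/7 CTL and 4 Tut4/7 cKO libraries. Positions past the dotted line are added Ts, and in both genotypes reads from base 1 end mostly at base 22 and reads from base 2 at base 23.

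Reads that ended before base 23 made up 47.8% ± 4.55 of miR-10a-5p reads in Tut4/7 CTL (SD, n = 5) and 54.5% ± 6.33 in Tut4/7 cKO cells (SD, n = 4). The share was 6.69 percentage points higher in Tut4/7 cKO libraries, with overlapping groups (exact permutation test, two-sided, p = 0.111, adjusted p = 0.667 over 6 comparisons). It was 4.30 points without Tut4/7 cKO replicate 1 and 9.38 points without Tut4/7 cKO replicate 4. Reads that ended exactly at base 23 made up 48.1% ± 4.59 and 43.6% ± 6.83 (SD, n = 5 and 4), a difference that also did not pass (exact permutation test, two-sided, p = 0.302, adjusted p = 0.905). Base 22 of miR-10a-5p is itself a U. A read cut back to base 21 with a U added has the same letters as a read that ends at base 22, and a read cut back to base 22 with a U added would mismatch base 23 and would not have been mapped. Tails on shortened molecules can therefore not be counted here.

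The T-ended share of miR-10a-5p was lower on average in Tut4/7 cKO libraries, but the difference passed no threshold with all 9 libraries. The share was 5.85%, 1.16%, 3.50%, 5.28% and 4.51% in Tut4/7 CTL replicates 1 to 5, from 12, 131, 59, 289 and 29 T-ended reads. It was 1.80%, 3.38%, 1.81% and 0.651% in Tut4/7 cKO replicates 1 to 4, from 3, 7, 10 and 73 T-ended reads. Counting alone left wide limits where reads were few. The 95% Wilson interval ran from 0.613% to 5.15% in Tut4/7 cKO replicate 1 and from 1.65% to 6.81% in replicate 2, but only from 0.519% to 0.818% in replicate 4. In Tut4/7 CTL it ran from 3.38% to 9.95% in replicate 1 and from 0.976% to 1.37% in replicate 2. The libraries with the most miR-10a-5p, Tut4/7 CTL replicate 2 and Tut4/7 cKO replicate 4, had the lowest share of their genotype, and Tut4/7 CTL replicate 2 also had a low T-ended share over all miRNAs. The part of miR-10a-5p level or of library in this share was not tested.

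**Figure D4:**
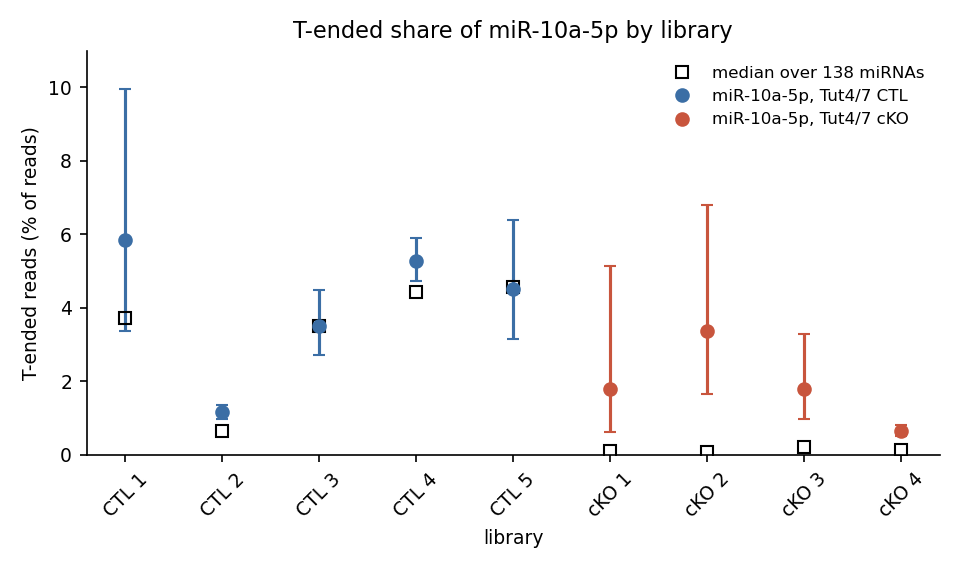
T-ended reads of miR-10a-5p as percent of its reads in each library (filled circles, bars for the 95% Wilson interval), with the median share over 138 miRNAs in the same library (open squares). miR-10a-5p lies above the median in all 4 Tut4/7 cKO libraries and follows its dip in Tut4/7 CTL replicate 2.

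The mean T-ended share of miR-10a-5p was 4.06% ± 1.85 in Tut4/7 CTL (SD, n = 5) and 1.91% ± 1.12 in Tut4/7 cKO cells (SD, n = 4). The difference of −2.15 percentage points had an exact permutation p of 0.0952 (two-sided, adjusted p = 0.476 over 10 comparisons of tailed shares), where 5 against 4 libraries allow 0.0159 at best. Without Tut4/7 CTL replicate 2 the groups no longer overlapped, and the difference was −2.88 points (exact permutation p = 0.0286, the smallest that 4 against 4 libraries can give). This p was not adjusted over the 10 comparisons. The library left out was the control with the lowest share, so its omission had to widen the difference. How many of all miRNAs did not overlap in that setting was not counted. Pooled over libraries, 520 of 19330 reads were T-ended in Tut4/7 CTL (2.69%, exact 95% interval 2.47% to 2.93%). In Tut4/7 cKO cells 93 of 12133 reads were T-ended (0.767%, 0.619% to 0.938%). By reads, each pooled value rests mainly on 1 library. Without the library with the most miR-10a-5p reads of each genotype, the shares were 4.86% and 2.16%. The 4.86% in turn rests mainly on Tut4/7 CTL replicate 4, with 289 T-ended of 5470 reads. Intervals treat each read as a separate molecule and leave out the spread between libraries. The reads were amplified by PCR and carry no molecular identifiers, so the intervals can be too narrow.

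In the model of the odds of a T-ended read, fitted over 143 miRNAs with a term per library, the log2 odds ratio of miR-10a-5p was −1.24, cKO against CTL, with an SE of 0.64 (edgeR quasi-likelihood test, adjusted p = 0.108). In the same fit 85 of the 143 miRNAs, or 59.4%, were called lower in Tut4/7 cKO cells, and the median log2 odds ratio was −2.84. miR-10a-5p ranked 47 from the highest among the 143. Entry to this fit asked for T-ended reads in Tut4/7 CTL libraries only, which tilts the set towards miRNAs lower in Tut4/7 cKO cells. With an entry rule blind to genotype, 85 of 151 miRNAs were called lower. The log2 odds ratio of miR-10a-5p was again −1.24 (edgeR, adjusted p = 0.112). Without Tut4/7 CTL replicate 2, miR-10a-5p passed the threshold, with a log2 odds ratio of −1.88 (edgeR, adjusted p = 8.34e-05). In that setting 100 of the 143 miRNAs were called lower, so the call is not particular to miR-10a-5p. Tut4/7 CTL replicate 2 had been singled out by its low T-ended share, so this call is not independent support. Without Tut4/7 cKO replicate 4 the log2 odds ratio of miR-10a-5p was −0.66 (edgeR, adjusted p = 0.419). When the T-ended reads were tested alone, without reference to the other reads of this miRNA, the log2 fold change was −2.62 (edgeR, adjusted p = 0.0161), a value that also holds any change in its abundance. That test called 88 of the 143 miRNAs lower.

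**Figure D5:**
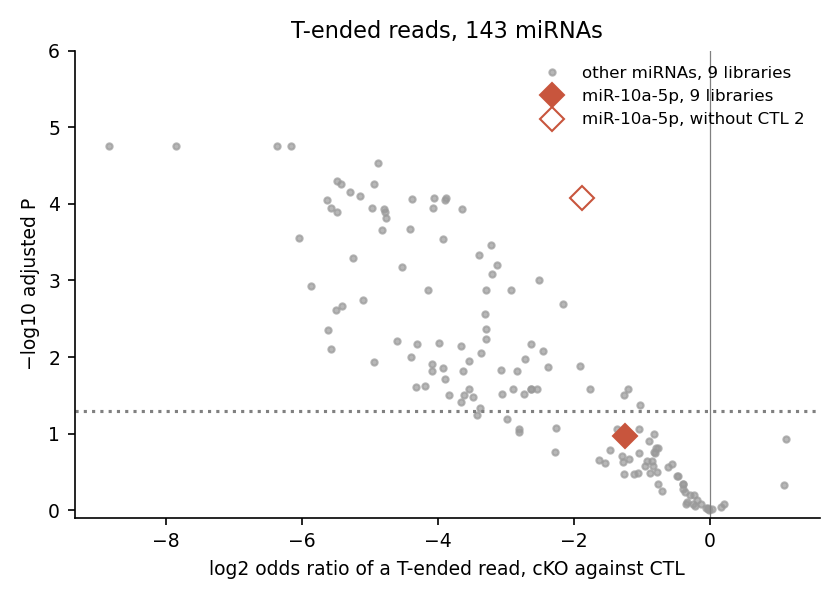
Adjusted P (−log10) against log2 odds ratio of a T-ended read, cKO against CTL, for 143 miRNAs, with the dotted line at an adjusted p of 0.05. With 9 libraries miR-10a-5p (filled diamond, −1.24) lies below the line, and without Tut4/7 CTL replicate 2 (open diamond, −1.88) it lies above it. The library left out had been singled out by its low T-ended share.

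The residual T-ended share of miR-10a-5p in Tut4/7 cKO cells lay above the median over miRNAs in 4 of 4 libraries. In Tut4/7 cKO replicate 2, for example, it was 3.38% against 0.0738%. In controls it was also above the median in replicates 1, 2 and 4 and slightly below it in replicates 3 and 5. Its place was not particular to it, as many miRNAs lie above a median. Pooled over Tut4/7 cKO libraries, miR-92a-3p for example had 109996 T-ended of 114448 reads. Nearly all T-ended reads carried a single T, 514 of 520 in controls and 93 of 93 in Tut4/7 cKO libraries, which is the base that the genome also holds at this place. The common T-ended forms are printed with the T past base 23 in capitals.
Bases 2 to 23 with 1 T: accctgtagatccgaatttgtgT
Bases 1 to 23 with 1 T: taccctgtagatccgaatttgtgT
The first made up 2.36% ± 1.01 of miR-10a-5p reads in Tut4/7 CTL (SD, n = 5) and 1.12% ± 0.377 in Tut4/7 cKO cells (SD, n = 4). The second made up 1.64% ± 0.861 in Tut4/7 CTL (SD, n = 5) and 0.786% ± 0.800 in Tut4/7 cKO cells (SD, n = 4). In 9 of 9 libraries the T-ended share was higher among reads from base 2 than among reads from base 1. Among the reads that reached the mature end this held in 7 of 9 libraries, and the pattern was seen in the data and not tested.

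Reads with 2 or 3 added Ts, which the genomic sequence after miR-10a-5p does not match, numbered 0, 1, 1, 4 and 0 in Tut4/7 CTL replicates 1 to 5. They were 6 of 19330 reads in all (0.0310%, exact 95% interval 0.0114% to 0.0675%), 5 with 2 Ts and 1 with 3 Ts. Of these 6 reads, 4 came from Tut4/7 CTL replicate 4. In Tut4/7 cKO libraries they were 0 of 12133 reads, which allows a share of up to 0.0247% by the limit of 3 counts and up to 0.0304% by the exact 95% interval used for the controls. Tut4/7 cKO replicate 4 held 11205 of these reads, and without it 0 of 928 reads allows up to 0.323% by the limit of 3 counts. The mean share was 0.0282% ± 0.0352 in Tut4/7 CTL (SD, n = 5) and 0% in Tut4/7 cKO libraries (exact permutation test, two-sided, p = 0.238, adjusted p = 0.595). Only 3 libraries, all Tut4/7 CTL, held such reads, so the test could give no smaller p for a lower Tut4/7 cKO share. A genotype difference in these longer tails was not detectable at this depth.

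For miR-10b-5p, 2 of 20 reads were T-ended in Tut4/7 CTL (10.0%, exact 95% interval 1.23% to 31.7%) and 1 of 22 in Tut4/7 cKO libraries (4.55%, 0.115% to 22.8%). Each carried a single T, which the genome also holds there. The mean share per library was 8.33% ± 11.8 (SD, n = 5) and 3.13% ± 6.25 (SD, n = 4), and the difference of −5.21 points was smaller than the spread (exact permutation test, two-sided, p = 0.556, adjusted p = 0.926 over 10 comparisons). Within libraries the T-ended share of miR-10a-5p minus that of miR-10b-5p was −2.91 ± 9.35 percentage points (SD, n = 9), with miR-10a-5p higher in 6 of 9 libraries (exact sign-flip permutation test, two-sided, p = 0.375). The genotype differences in log2 odds of both miRNAs differed by −0.31 (exact permutation test, two-sided, p = 0.762). With 2 to 8 reads of miR-10b-5p per library, differences between the miR-10 pair could not be resolved.

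The other listed mature miRNAs of the Hox clusters were sparse, with miR-196b-5p not analysed here and not among them. Of 8 further names on the list, 3 had counts, miR-10a-3p with 266 reads and miR-196a-5p and miR-615-3p with 1 read each over 9 libraries. The miR-99 and miR-100 relatives of miR-10, which resemble it in sequence but lie outside the Hox clusters, had 7 to 14 reads (miR-99a-5p), 0 to 6 reads (miR-99b-5p) and 2 to 8 reads (miR-100-5p) per library. miR-99a-5p alone of these relatives was tested for abundance, and it did not pass. Set beside both lists, miR-10a-5p was therefore the predominant miRNA in every library, a comparison that leaves out miR-196b-5p.

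The abundance of miR-10a-5p was compared with that of the other tested miRNAs by the mean absolute difference of log2 CPM over the 9 libraries, after each was centered on its own mean. miR-7033-5p was the nearest, with a mean difference of 1.20. miR-146a-5p, which restrains inflammatory signaling in blood cells, followed at 1.22, and miR-22-5p at 1.23. The patterns did not match in every library. In Tut4/7 CTL replicate 1 the centered log2 CPM was −2.08 for miR-10a-5p. There it was 0.90 for miR-7033-5p, 0.74 for miR-146a-5p and 1.00 for miR-22-5p. In Tut4/7 cKO replicate 4 each of these miRNAs lay above its own mean. Among Tut4/7 cKO libraries, miR-146a-5p and miR-10a-5p were both highest in replicate 4, where miR-146a-5p had 8548 CPM against at most 591 CPM in the rest. In Tut4/7 CTL libraries miR-146a-5p ranged from 518 to 1533 CPM, a narrower range than that of miR-10a-5p.

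Marker miRNAs were read beside these levels, as summed CPM without TMM scaling. The blood list, which includes the hematopoietic miR-142a and the myeloid miR-223, had counts for 5 of 5 members and summed to 5853 to 14106 in Tut4/7 CTL and 4987 to 11876 in Tut4/7 cKO libraries. Its members were uneven. Over all libraries miR-223-3p had 15133 reads and miR-155-5p had 9458. By contrast, miR-150-5p had 277, miR-142a-3p had 244 and miR-142a-5p had 19. The erythroid miR-451a, 1 of 2 on its list with counts, was at 0 to 4.77 and 0 to 5.70. The liver miR-122-5p was at 529 to 1346 and 581 to 1425. The epithelial list had counts for 3 of 3 members and summed to 880 to 1617 and 527 to 1444. Of these, miR-200c-3p had 2490 reads over all libraries, miR-203-3p had 348 and miR-141-3p had 2. Endothelial (2 of 2 members), stromal (4 of 4), muscle (1 of 3) and neuronal (1 of 2) lists stayed at or below 227. The endothelial list held the arms of miR-126a, which were listed for stem cells as well as endothelium. The ranges of the blood, liver and epithelial lists overlapped between genotypes, and the part of other cell types in the spread of miR-10a-5p was not tested.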

How the data were processed

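Adapter removal with cutadapt 5.0 and mapping with Bowtie 1.3.1 were done by the authors, with no mismatch allowed and miRBase mature sequences extended by 3 Ts as the reference. They deposited raw read counts, summed for each mature miRNA and also listed for every read sequence of a library. Reads past the mature end were marked as uridylated in-house, and this mark, the added Ts and the sums were checked, with 0 differences. Libraries held 175462 to 479342 miRNA reads.

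The abundance test used edgeR 4.0.16 under R 4.3.3 (TMM, glmQLFit, glmQLFTest, genotype as the only term), keeping miRNAs with 10 or more reads in 4 or more libraries. For T-ended odds, edgeR was given the T-ended and the other reads of each library, every library had its own term, and the genotype effect on read class was tested. Entry required 10 or more reads in 5 or more libraries and T-ended reads in 3 or more Tut4/7 CTL libraries. Adjusted p is by Benjamini-Hochberg. Shares of single miRNAs were compared with exact permutation tests in SciPy 1.17.1. The code was first tested on simulated data. Mature sequences were located in GRCm39 with GENCODE annotation. RefSeq sequences came from a table of build GRCm38.p6.

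The members and lists were chosen with earlier results of these data known. Named miRNAs were the members, other Hox-cluster miRNAs with at least 10 reads, relatives of miR-10, miRNAs sharing a seed and the 3 of nearest abundance pattern. miR-196a-5p and miR-615-3p, with 1 read each, are also named. Members were to be compared in pairs, and 1 pair remained. Alternatives were DESeq2 1.42.0, other scalings, filters and denominators, a quasi-binomial model, a replicate block and omission of each library.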

Additional observations from a re-analysis of the deposited data

Results flagged for a closer look

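The level of miR-10a-5p in Tut4/7 cKO replicate 4, 28179 CPM, lay far from the other 3 Tut4/7 cKO libraries, of which the next was at 1265 CPM. Its gap to that library took 0.975 of the whole range of the group, above Dixon's 95% critical value of 0.829 for 4 libraries. On the log2 scale, on which the spread of miR-10a-5p was described and its abundance fitted, the gap took 0.793 of the range and lay below that value. miR-10a-3p, the other arm of the hairpin, had 322 CPM in the same library against 16.3 CPM in the next, a gap of 0.949 of the range. A gap past the critical value arises by chance in about 1 of 20 groups. Both arms come from the same hairpin and the same library and are not separate observations.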

How the results depend on the processing

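The number of miRNAs called for abundance was 1 of 205 and depended on the processing. DESeq2 called 11, edgeR without a filter on low counts called 18, and leaving out 1 library gave 0 to 2 (edgeR, 19 to 53 at an unadjusted p under 0.05), with 0 without Tut4/7 CTL replicate 3 or any Tut4/7 cKO library and 2 without Tut4/7 CTL replicate 2. miR-10a-5p was called in none of the 15 alternatives. Its log2 fold change ran from −3.91 to 0.087 when 1 library was left out, and the sign turned without Tut4/7 CTL replicate 2. The count of miRNAs with fewer T-ended reads stayed between 61 and 100 over 15 alternatives, and the log2 odds ratio of miR-10a-5p was negative in all of them. It passed the threshold in 2, without Tut4/7 CTL replicate 2 (−1.88) and for T-ended reads alone (−2.62). These called 100 and 88 of the 143 miRNAs lower. Its difference in T-ended share ran from −2.88 to −1.70 percentage points when 1 library was left out. Only the unadjusted p without Tut4/7 CTL replicate 2 was under 0.05 (exact permutation p = 0.0286), and that library had been singled out by its low T-ended share. The difference was −3.46 points among reads that reached the mature end (exact permutation p = 0.127) and −1.40 points among reads from base 1 (exact permutation p = 0.175). The difference in reads from base 1 ran from −1.17 to 1.73 points and turned sign without Tut4/7 CTL replicate 1 or Tut4/7 cKO replicate 1. Leaving out 1 library moved the difference in reads that ended early from 4.30 to 9.38 points and that in reads that ended at base 23 from −7.65 to −2.19 points, the extremes being without Tut4/7 cKO replicates 1 and 4, and neither passed. The cause of these shifts was not tested.

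With the replicate number as a block in replicates 1 to 4, edgeR called 0 of 205 miRNAs for abundance (21 at an unadjusted p under 0.05) and 73 of 143 for T-ended odds. The replicate block gave miR-10a-5p a log2 fold change of −1.52 and a log2 odds ratio of −1.14, neither called, and a difference in T-ended share of −2.04 points (exact sign-flip permutation p = 0.375). With 4 pairs a sign-flip test cannot reach a p under 0.05. The labels link same-numbered libraries by the number only, and whether they shared an embryo litter or a batch is not known. Their residual log2 CPM correlated at −0.12, −0.27, 0.36 and 0.15. The alternatives by reads at the mature end, from base 1 or with a block were not run for the shares of miR-10b-5p, which had no read at the mature end in 3 libraries and no T-ended read from base 1. Depth limits miR-10b-5p, with 2 to 8 reads per library, and tails of 2 or more Ts.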
